A study of Homo sapiens with 42 samples.

Results

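The charged multivesicular body proteins (CHMPs) are the subunits of ESCRT-III, and 9 of their genes are described here: CHMP4C, which was selected on its measured RNA level in these data (on in the neil2 and neil123 knockouts, off in wt), and its relatives CHMP4A, CHMP4B, CHMP2A, CHMP2B, CHMP3, CHMP6, CHMP1A and CHMP1B. All 9 were in the table, among 20515 entries with a gene symbol, and all 9 were among the 14331 genes tested (a mean value of 10 or more over all libraries). CHMP4C passed that filter only through the libraries where it was high, so its differences between the knockouts and wt are given as a description, with no test. The question put to the other 8 genes was whether they changed in the same lines.

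RNA was sequenced from HAP1 cells, a near-haploid human line derived from a chronic myeloid leukaemia, in 42 libraries. The knockout genotypes were neil1, neil2 and neil3, which lack the DNA glycosylase NEIL1, NEIL2 or NEIL3 as labelled, and neil123, which lacks all of them; wt cells served as the control. Each genotype was kept with 200 µM BSO (buthionine sulfoximine, an inhibitor of glutathione synthesis) for 48 h, begun after 4 h, or in media alone. The neil1 and neil2 groups held 3 libraries per treatment, the neil3 and neil123 groups 4, and wt 7. Sample names either end in a letter (A or B) or do not, and the 2 label sets were kept apart: neil1 and neil2 were compared with the 3 unlettered wt libraries of the same treatment, and neil3 and neil123 with the 4 lettered ones. In the knockouts the number before a point or a letter, or standing alone, was read as the name of a line (neil1 lines 12 and 13, neil2 lines 11 and 12, neil3 and neil123 lines 1 and 2). In wt the names 1.1, 1.3 and p1 were each read as a line, and the same name in the 2 label sets as separate lines. Apart from the unlettered wt ones, the titles call the libraries biological replicates. They do not say whether those were separate cultures of a line, so p-values measure the spread between these libraries, which may in part be technical.

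ESCRT-III subunits polymerise on the cytosolic face of a membrane neck and, with the ATPase VPS4, cut it from the inside. They act in the sorting of cargo into multivesicular bodies, in the separation of daughter cells at the midbody, in sealing of the nuclear envelope and in repair of the plasma membrane, which includes membranes damaged in ferroptosis. The CHMP4 proteins form the filament, CHMP6 nucleates it, CHMP2A, CHMP2B and CHMP3 cap it, and CHMP1A and CHMP1B act late with IST1 and help to bring in VPS4. CHMP4C is the subunit that delays abscission when Aurora B is active and is not needed for the cut itself.

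The libraries held 26.8 M to 30.7 M reads assigned to genes. Their mitochondrially encoded RNA made up 1.70% to 4.66% of reads. NEIL2 was lower in neil2 and neil123 than in wt: 300 to 328 normalized read counts in neil2 media libraries against 487 to 613 in unlettered wt media libraries, and 215 to 242 in neil123 media libraries against 363 to 425 in lettered wt ones. NEIL3 had 381 to 472 in neil123 and 410 to 614 in neil3 media libraries, against 590 to 671 in lettered wt ones. NEIL1 was not lower where it was knocked out, at 284 to 513 in neil1 against 310 to 403 in unlettered wt media libraries and at 842 to 1072 in neil123 against 774 to 975 in lettered wt ones. The labels do not give the form of the mutations, and a small insertion or deletion need not lower RNA, so these levels do not check the NEIL1 label. The blood genes PTPRC and GATA1 stayed at 2.92 and 2.07 or less in every library, whereas GATA2, a haematopoietic transcription factor, had at least 1199. 

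Both promoters of the CHMP1 pair are shown because CHMP1B was the only one of the other 8 genes to pass the main test of BSO in wt cells, where CHMP1A did not. The sequences are 250 bases before to 50 after the start of each gene, from RefSeq (GRCh38.p14), with capitals for the cAMP response element TGACGTCA, a palindrome searched on both strands. CHMP1B lies at chr18:11851163-11851462 on the plus strand and CHMP1A at chr16:89657659-89657958 on the minus strand.
CHMP1B: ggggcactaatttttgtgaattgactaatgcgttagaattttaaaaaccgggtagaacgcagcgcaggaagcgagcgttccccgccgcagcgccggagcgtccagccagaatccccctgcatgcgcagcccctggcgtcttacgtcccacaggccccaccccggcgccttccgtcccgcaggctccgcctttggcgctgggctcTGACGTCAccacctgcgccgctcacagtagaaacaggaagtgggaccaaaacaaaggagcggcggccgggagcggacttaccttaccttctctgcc
CHMP1A: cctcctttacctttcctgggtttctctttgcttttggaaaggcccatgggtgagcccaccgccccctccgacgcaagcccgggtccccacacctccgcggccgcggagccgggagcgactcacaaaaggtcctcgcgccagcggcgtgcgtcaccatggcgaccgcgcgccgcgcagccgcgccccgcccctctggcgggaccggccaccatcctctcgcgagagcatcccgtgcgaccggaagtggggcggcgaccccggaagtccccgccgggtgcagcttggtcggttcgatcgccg
The element began at offset -46 from the start of CHMP1B. It was in no other of the 6 promoters matched (CHMP4A, CHMP4B, CHMP2A, CHMP2B, CHMP1A and CHMP1B) and in 1.85% of all 35116 promoters of the table. The antioxidant response element core TGACNNNGC occurred once, in CHMP2B, against 13.3% of all promoters, and the E-box CACGTG once, in CHMP4A, against 7.26%. Both were searched on both strands. The CHMP1A promoter held 40 CG pairs and that of CHMP1B 27, where the median of 27305 genes was 14. These are matches of letters and say nothing of binding.

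CHMP4C (ENSG00000164695.4; chr8:81732434-81759515, plus strand, GRCh38) was present in every neil2 and neil123 library and nearly absent in wt. Its normalized read counts in neil2 cells were 268, 262 and 339 with BSO and 249, 258 and 302 in media. In neil123 cells they were 315, 290, 277 and 336 with BSO and 276, 245, 306 and 296 in media. In wt cells they ran, lowest, median and highest, 0, 2.50 and 8.74 over the 14 libraries, and no wt library came near those of neil2 and neil123. Both lines of neil2 and both of neil123 had the gene on, at 245 to 339. From pooled reads the neil2 level was 121 times that of wt in media (95% counting interval 58.3 to 301) and 110 times with BSO (55.6 to 256). The neil123 level was 161 times that of wt in media (77.8 to 401) and 60.7 times with BSO (39.1 to 99.7). These intervals cover counting error only. Library 1.3 held 5 of the 7 unlettered wt media reads, and without it the neil2 ratio in media was 279. Library 1.3B held 4 of the 7 lettered wt media reads, and without it the neil123 ratio in media was 280.2. The summed level of 12 epithelial genes (9 in the table, CDH1 at 7.59 or less in every library) was 5294 to 10569 over the neil2 libraries and 1973 to 4066 over the neil123 libraries, against 2144 to 4277 in wt. This sum was 3252 to 11187 over the neil1 libraries, which include its highest value, and 2352 to 4180 over the neil3 libraries. Its members did not move together by limma, whose differences are on the log2(value + 1) scale and pass at a Benjamini-Hochberg adjusted p under 0.05 over all genes tested. KRT8, which with KRT18 makes up most of the sum, rose in neil2, at 2.16 in media and 1.97 with BSO, while EPCAM fell, at -1.96 in media and -1.72 with BSO in neil2 and at -2.12 in media and -1.96 with BSO in neil123 (2 of 5 tested genes called in neil2 and 1 in neil123, in each treatment). The summed level of 12 blood genes (8 in the table) was 2385 to 3122 in neil2 and 3752 to 4500 in neil123, against 3487 to 4545 in wt, with GATA2 at 1199 to 2487 over all libraries. This blood sum was 3778 to 4980 in neil1 and 3453 to 4279 in neil3. Of its 6 tested genes 1 was called in each genotype but neil1, in both treatments: TAL1 fell in neil2, at -1.57 in media and -1.76 with BSO, KIT fell in neil123, at -2.17 in media and -2.25 with BSO, and LYL1 fell in neil3, where CHMP4C was near 0, at -2.10 in media and -2.02 with BSO. The part of cell state in the level of CHMP4C was not tested. In bulk RNA a change in the number of cells that express a gene and a change in RNA per cell cannot be told apart.

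The neil1 cells were split by line. CHMP4C stood at 357 and 305 with BSO and at 312 and 289 in media in the libraries of neil1 line 13, within or just above the range of neil2 and neil123. In neil1 line 12 it was at 0 with BSO and 1.02 in media, within the range of wt. The neil1 group therefore held both states, and its mean describes neither. NEIL2 in the media libraries of neil1 line 13 was 491 and 495, above every neil2 library. In neil3 cells CHMP4C was listed at 0 in 4 of 8 libraries and reached 6.05 in 1. In media the 4 neil3 libraries held 1 read of the gene in all, and the lettered wt libraries 7.

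**Figure D1:**
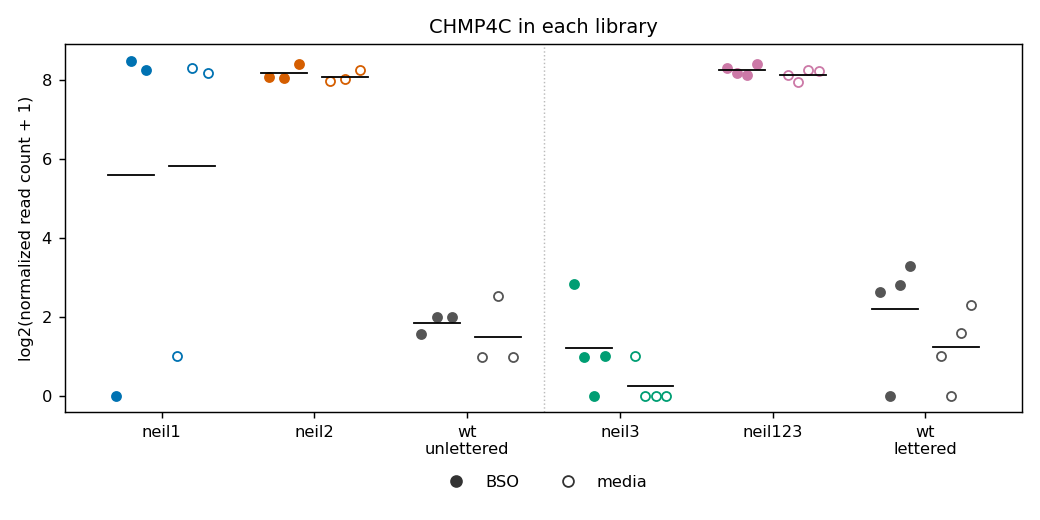
CHMP4C in each of 42 libraries, as log2(normalized read count + 1) on the vertical axis, by genotype; filled points are BSO libraries, open points media libraries, black lines group means, and the dotted line separates the label sets. The neil2 and neil123 libraries lie between 245 and 339 normalized read counts, the neil1 libraries fall at both ends, and no wt library is above 8.74.

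CHMP4C was higher with BSO in 16 of 21 pairs of BSO and media libraries and lower in 3. Whether the change passed a test depended on the pairs taken and on how they were modelled. In the 7 pairs of BSO and media libraries of neil2 and neil123 CHMP4C was higher with BSO in 6, by a mean of 0.11 on the log2 scale (SD 0.13; range -0.14 to 0.24), which did not pass a 2-sided exact sign-flip permutation test (p = 0.0781; the smallest p that 7 pairs allow is 0.0156). With the 2 pairs of neil1 line 13, added because the gene was on there, 8 of 9 were higher, by a mean of 0.12 (SD 0.12), and the same exact test gave p = 0.0273 (smallest possible 0.00391). Both tests treat pairs of the same line as independent, and both sets of pairs were chosen after the values were seen. No conclusion is therefore drawn from either p-value. Over all 21 pairs limma with the pair as a block gave 0.42 (adjusted p = 0.0155, against 0.598 without the block and 0.106 with 1 mean per line). In 12 of these pairs no library was above 8.74 and single reads set the difference, so no conclusion is drawn from this test. In those cells the pooled reads were 20 with BSO against 7 in media in lettered wt, 8 against 7 in unlettered wt, and 8 against 1 in neil3.

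Set against its closest relatives per length, CHMP4C remained a minor CHMP4 gene. Per kb of exon, CHMP4C averaged 155 ± 23.1 with BSO and 144 ± 15.2 in media in neil2 (SD, n = 3 each) and 163 ± 13.99 with BSO and 150 ± 14.3 in media in neil123 (SD, n = 4 each). CHMP4B, the main filament subunit in most cells, had a mean of 1852 per kb over all 42 libraries, and CHMP4A 16.1. CHMP4C made up 7.50% ± 1.16 of the summed CHMP4 level with BSO and 6.95% ± 0.79 in media in neil2 cells (SD, n = 3 each). In neil123 cells it made up 8.28% ± 0.54 with BSO and 7.20% ± 0.67 in media (SD, n = 4 each). In wt groups its mean share was 0.0526% to 0.159%. In libraries with the gene on, its level per kb was thus above the counted level of CHMP4A and below that of CHMP4B. CHMP4A overlaps AL136295.1 and AL096870.2 on the same strand in GENCODE v29, and how shared reads were counted is not given. The level of CHMP4A, its rank below CHMP4C and the CHMP4 shares depend on that. The other subunits ranked, per kb over all libraries, CHMP1A 1047, CHMP2A 594, CHMP2B 458, CHMP1B 246, CHMP3 179 and CHMP6 98.5. The length used was the union of all annotated exons of a gene, from 1.646 kb for CHMP4B to 7.018 kb for CHMP3. It is not that of the transcript expressed, so the ranks depend on it.

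None of the other 8 CHMP genes passed the test in any of the 8 comparisons of a knockout with wt. Of all genes tested, the share called in media was 0.300% in neil1, 11.0% in neil2, 0.440% in neil3 and 5.34% in neil123, and the share called with BSO was 0.202% in neil1, 15.8% in neil2, 0.405% in neil3 and 8.09% in neil123. At an unadjusted p under 0.05, media gave 2 of 8 genes in neil1, 0 in neil2, 0 in neil3 and 2 in neil123, and BSO gave 1 in neil1 and 0 in the others. edgeR's quasi-likelihood test on whole reads recovered from the values also called 0 in all 8 comparisons. The median difference of the 8 genes was 0.08 in neil2 and 0.05 in neil123 in media, where the median of all genes was 0.02 and -0.00. Within a treatment, the comparisons of neil1 and neil2 share their wt libraries, and so do those of neil3 and neil123.

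CHMP4B, the abundant CHMP4 gene, had 3273, 3046 and 3067 normalized read counts with BSO and 3069, 3311 and 3100 in media in neil2 cells, against 3352, 3140 and 3177 with BSO and 3280, 3041 and 3215 in media in unlettered wt cells. The ranges overlapped. Its difference in neil2 media was -0.01 (95% interval -0.11 to 0.09). In neil123 media CHMP4B was at 3168, 3140, 3066 and 3264, against 3059, 2829, 2977 and 2810 in lettered wt media, and each neil123 library was above all 4 of wt. That difference, 0.12 (SE 0.04), had an adjusted p of 0.132 by limma. CHMP4A, which had few reads, stood at 41.6, 37.1 and 31.9 in neil2 media against 26.8, 35.8 and 22.4 in unlettered wt media. Its difference of 0.39 (95% interval -0.06 to 0.84) has the widest interval of the 8 genes, and no change was detectable at this depth.

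The nucleator CHMP6 was at 236, 210 and 213 in neil2 media against 240, 213 and 231 in unlettered wt media, a difference of -0.05 (95% interval -0.30 to 0.20). It was at 260, 208, 241 and 224 in neil123 media against 244, 157, 228 and 211 in lettered wt media, a difference of 0.17 (95% interval -0.05 to 0.38). In both comparisons the groups overlapped. Among the capping subunits, CHMP3 differed by 0.05 in neil2 (95% interval -0.07 to 0.17) and by 0.05 in neil123 (95% interval -0.05 to 0.15) in media. CHMP2A differed by 0.12 in neil2 (95% interval -0.09 to 0.32) and by 0.05 in neil123 (95% interval -0.13 to 0.22), and CHMP2B, whose mutations cause a form of frontotemporal dementia, by 0.14 in neil2 (95% interval -0.03 to 0.31) and by -0.06 in neil123 (95% interval -0.21 to 0.08). CHMP1A differed by 0.09 in neil2 (95% interval -0.04 to 0.22) and by 0.05 in neil123 (95% interval -0.06 to 0.17). CHMP1B differed by 0.08 in neil2 (95% interval -0.07 to 0.23) and by 0.15 in neil123 (SE 0.07, adjusted p = 0.199), and it passed in neil123 when library 1B was left out of the media group.

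**Figure D2:**
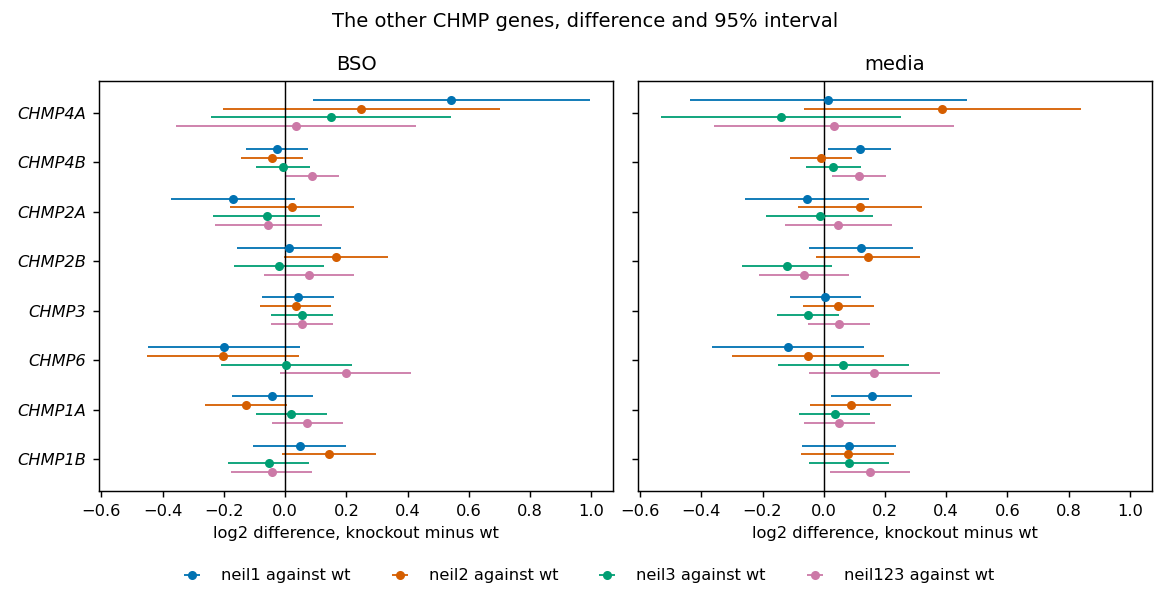
Difference of each knockout from wt of its own label set for the other 8 CHMP genes, BSO left and media right; the horizontal axis is the log2(value + 1) difference, points are estimates and bars 95% intervals from limma. None of the estimates passed the test, and the intervals of CHMP4A, the gene with the fewest reads, are the widest.

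The values of CHMP2B did not overlap between the label sets, a contrast that was not planned. Its normalized read counts were 1420 to 2025 over the 18 unlettered libraries and 1032 to 1379 over the 24 lettered ones, with no overlap. How many of all genes tested separate the label sets in this way was not counted, so this is a description and not a trait of CHMP2B. The sets also hold different knockouts, neil1 and neil2 unlettered and neil3 and neil123 lettered. Library sizes also did not overlap, at 29.9 M to 30.7 M reads unlettered and 26.8 M to 28.7 M lettered. The wt media libraries alone gave 1729, 1581 and 1420 unlettered and 1220, 1240, 1318 and 1117 lettered. What separates the label sets is not given in the labels, so culture, preparation and sequencing cannot be told apart.

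Treatment with BSO changed the late-acting subunit CHMP1B in wt cells. CHMP1B had 803, 726 and 720 normalized read counts with BSO and 641, 638 and 646 in media in unlettered wt cells. In lettered wt cells it had 870, 848, 766 and 893 with BSO and 662, 714, 661 and 667 in media. Every BSO library was above every media library. CHMP1B rose by 0.27 on the log2 scale (SE 0.05, adjusted p = 0.000231 by limma, as the mean of both label sets), and by 0.22 and 0.32 in the unlettered and the lettered set. It was the only one of the 8 genes called, where 15.7% of all genes were. CHMP1B lies within GNAL on the same strand and opposite CHMP1B-AS1, so reads of these genes may not be told apart. The near-identical CHMP1B2P had at most 7.05.

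With the replicate names as a block, which pairs each BSO library with the media library of the same name, more of the genes passed. In wt 3 of 8 were called, where 36.6% of all genes were: CHMP1B (0.27, adjusted p = 9.25e-06), CHMP2A (0.12, adjusted p = 0.00374) and CHMP1A (0.08, adjusted p = 0.0178). Within the label sets CHMP2A differed by 0.11 in unlettered and 0.13 in lettered wt, but CHMP1A by 0.19 and -0.02. In neil1 2 were called (11.0% of all genes), CHMP3 at 0.16 and CHMP4B at -0.12. In neil2 CHMP1B was called at 0.29 (8.46% of all genes; adjusted p = 0.00406, against 0.123 without the block). In neil3 4 were called (24.0% of all genes), CHMP3 at 0.11, CHMP6 at -0.23, CHMP1B at 0.18 and CHMP4B at -0.11. In neil123 CHMP2B was called at 0.12 (11.7% of all genes). Without the block none of the 8 passed in neil1, neil2, neil3 or neil123, where 1.29%, 0.174%, 6.64% and 1.70% of all genes did; unadjusted p under 0.05 gave 4, 1, 4 and 1 of 8, and edgeR called 0 in each.

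A comparison over all 21 pairs, added after the values were seen, gave 1 BSO change for each subunit. CHMP1B was higher with BSO in 20 of 21 pairs, by 0.22 (SE 0.03, adjusted p = 4.19e-08, limma with the pair as a block). CHMP6 was lower in 19 of 21, by 0.15 on the log2 scale (adjusted p = 0.000386). CHMP4B was lower in 17 of 21, at -0.07 (SE 0.02, adjusted p = 0.00112). The capping subunits CHMP3, CHMP2B and CHMP2A were each higher in 17 of 21, at 0.08 (adjusted p = 0.00151), 0.07 (adjusted p = 0.00571) and 0.06 (adjusted p = 0.0108). CHMP1A (0.01, adjusted p = 0.690) and CHMP4A (-0.01, adjusted p = 0.942) were higher in 9 of 21 each and did not pass. In all 6 of 8 passed, 4 higher and 2 lower, where 45.4% of all genes did (22.5% higher and 22.9% lower), and each of the 6 changes is small: that of CHMP1B was the largest. CHMP2A did not pass when columns were scaled to equal totals, nor CHMP2A and CHMP2B without the block.

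**Figure D3:**
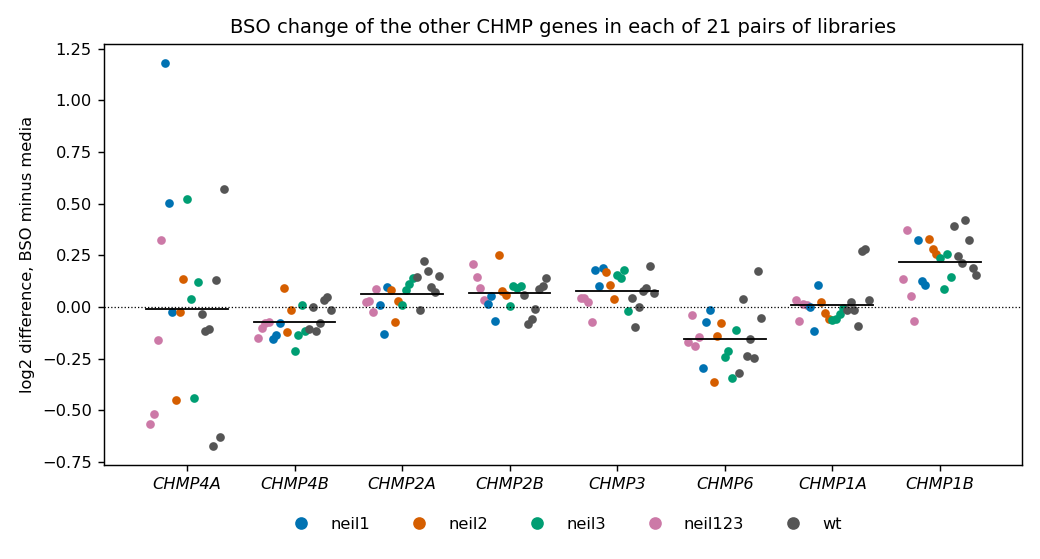
BSO minus media difference in log2(value + 1) for each of 21 pairs of libraries (points, coloured by genotype) and their mean (black line) for the other 8 CHMP genes. CHMP1B lies above 0 in 20 of 21 pairs and CHMP6 below 0 in 19 of 21.

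No difference between the BSO change of a knockout and that of wt passed for the 8 genes, and 0% of all genes passed any of these 4 comparisons; at an unadjusted p under 0.05 they gave 1, 1, 0 and 1 of the 8 in neil1, neil2, neil3 and neil123, and edgeR called 0 of the 8. With the replicate block 2.21% of all genes passed for neil1, 10.4% for neil2, 0% for neil3 and 0.0349% for neil123, and of the 8 genes CHMP1A passed, for neil2, at -0.22 (adjusted p = 0.0211). CHMP1A was at 3521, 3266 and 3259 with BSO and at 3462, 3330 and 3396 in media in neil2, against 3861, 3506 and 3612 with BSO and 3201, 2889 and 3530 in media in unlettered wt. It was higher with BSO in 1 of 3 neil2 pairs and in 3 of 3 of these wt pairs. In lettered wt cells 1 of 4 pairs was higher.

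Other genes of the pathway were taken from 4 lists with 49 genes, all tested. In media 1 rose and 2 fell in neil2, 0 rose and 2 fell in neil123, and none passed in neil1 or neil3; with BSO 4 rose and 3 fell in neil2, 4 rose and 1 fell in neil123, and again none passed in neil1 or neil3. The background is the same shares of all genes as above. The counts depend on single libraries: leaving out 1 library gave 1 to 7 in neil2 media (1 without the second library of neil2 line 11, 7 without wt p1) and 1 to 6 in neil2 with BSO (1 without the second library of neil2 line 11, 2 without wt p1, 4 without the first of line 11 or wt 1.1). It gave 1 to 2 in neil123 media, 1 to 4 in neil123 with BSO (1 without wt 1.3B; 2 or 3 without 6 of the other 7) and 0 to 3 in neil1 media (3 without wt p1). The median over the 49 genes was 0.07 in neil2 and 0.00 in neil123 in media. MVB12B, an ESCRT-I subunit, had 848, 852 and 1000 normalized read counts with BSO and 845, 895 and 932 in media in neil2, against 1204, 1160 and 1206 with BSO and 1103, 1096 and 1156 in media in unlettered wt. No library overlapped, and MVB12B fell by 0.41 with BSO (adjusted p = 0.00102) and fell by 0.33 in media (adjusted p = 0.00699), in limma. In neil123 it differed by -0.12 in media and did not pass.

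Among the ESCRT-III partners, CHMP5, which binds the VPS4 cofactor VTA1, rose by 0.28 in neil2 media, and SPAST, the microtubule-severing ATPase that CHMP1B recruits, fell by 0.35 in neil123 media. CHMP5 had 1386, 1407 and 1572 in neil2 media against 1222, 1224 and 1137 in unlettered wt media. SPAST had 890.5, 889, 874 and 933 in neil123 media against 1162, 1049, 1269 and 1095 in lettered wt media. In neil3 media, where CHMP4C was near 0, SPAST was at 807 to 897, a difference from wt of -0.43 that did not pass (adjusted p = 0.0538). Neither CHMP5 nor SPAST overlapped between the groups compared, but in limma both calls were lost when 1 library was left out (5 of 6 libraries for CHMP5 and 7 of 8 for SPAST). With BSO, MITD1 (0.30) and VPS4B (0.23) rose in neil2, and VTA1 (0.23), TSG101 (0.13) and VPS37B (0.24) rose in neil123. CEP55, the midbody scaffold that brings ALIX and ESCRT-I to the abscission site, rose in both, by 0.30 in neil2 and 0.29 in neil123 with BSO. CEP55 had 4077, 3680 and 2931 in neil2 with BSO against 3017, 2864 and 2718 in unlettered wt with BSO, and the groups overlapped. It had 2946, 2965, 2567 and 3028 in neil123 against 2200, 2604, 2430 and 2208 in lettered wt. KIF23 (0.25) rose and INCENP (-0.19) fell in neil2 with BSO. Leaving out 1 library ended the call of KIF23 in 6 of 6 cases, of VPS4B in 5 of 6, of MITD1, INCENP and CEP55 in neil2 in 4 of 6, of TSG101 and VPS37B in 7 of 8, of CEP55 in neil123 in 5 of 8 and of VTA1 in 1 of 8 (without wt 1.3B). The line as a random block ended those of CHMP5, SPAST, VPS4B, TSG101, VPS37B, KIF23, INCENP and CEP55 in neil2, and edgeR did not call KIF23. With 1 mean per line SPAST, TSG101, VPS37B and KIF23 were lost, as was CEP55 in neil2 and in neil123. Equal totals ended the calls of VPS4B, TSG101, VPS37B, KIF23 and CEP55 in neil123. Without the filter VPS4B, TSG101, VPS37B, KIF23 and INCENP were lost. The label set as a term ended the calls of TSG101 and VPS37B.

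NEDD4L, a ubiquitin ligase of the NEDD4 family, was lower in neil123 and neil2. It was at 657.9, 716, 651 and 688.5 with BSO and at 596, 635, 647 and 594 in media in neil123, against 1695, 1899, 1468 and 1708 with BSO and 1379, 1555, 1212 and 1569 in media in lettered wt. No library overlapped, and NEDD4L fell by 1.31 on the log2 scale with BSO (adjusted p = 0.000564) and fell by 1.20 in media (adjusted p = 0.00143). In neil2 it followed the line: 575 and 602 with BSO and 590 and 599 in media in line 11, but 1560 with BSO and 1460 in media in line 12, where CHMP4C was as high as in line 11. The neil2 difference passed in media at -1.13 (adjusted p = 0.00958). It did not pass without either library of line 11, and with 1 mean per line no NEDD4L difference passed. Lower levels were also seen outside these genotypes: neil1 had 1185 to 1577 with BSO and 1149 to 1384 in media, against 1686 to 2074 with BSO and 1552 to 1933 in media in unlettered wt, with no overlap, at -0.49 with BSO and -0.51 in media, which did not pass (adjusted p = 0.575 with BSO and 0.468 in media). In neil3 line 2 it was at 1285 and 1336 with BSO, below every lettered wt library with BSO, and in neil3 line 1 at 2251 and 2230, above them all.

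In wt cells BSO changed 11 of the 49 genes, 5 higher and 6 lower, where 15.7% of all genes were called; without unlettered wt media library 1.3 the count was 6. CEP55 fell by 0.29 (adjusted p = 0.00221), PRC1 by 0.28 (adjusted p = 0.0360) and KIF20A by 0.11 (adjusted p = 0.0139), all of them genes of the cleavage furrow and midbody. PDCD6, a calcium-binding partner of ALIX, fell by 0.33 (adjusted p = 0.0147). LEMD2, which brings CHMP7 to the nuclear envelope, rose by 0.19 (adjusted p = 0.00130), whereas CHMP7 fell by 0.10 (adjusted p = 0.0319) and CHMP5 rose by 0.22 (adjusted p = 0.00948). VPS37C (0.17), SNF8 (0.14) and STAMBP (0.11) rose and VPS36 (-0.19) fell. With the replicate block 17 of the 49 passed, where 36.6% of all genes did.

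IST1, which copolymerises with CHMP1B, was singled out after its values were seen. It stood at 5485 and 5330 with BSO and at 5365 and 5431 in media in neil3 line 2, against 2970 and 2931 with BSO and 3062 and 3077 in media in neil3 line 1. The 34 libraries of the other genotypes had 2869 to 3792, so all 4 libraries of neil3 line 2 stood above every other library. As a group neil3 differed from wt by 0.42 with BSO and 0.38 in media and did not pass. CHMP1A and CHMP1B in neil3 line 2 were within the range of the other libraries.

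**Figure D4:**
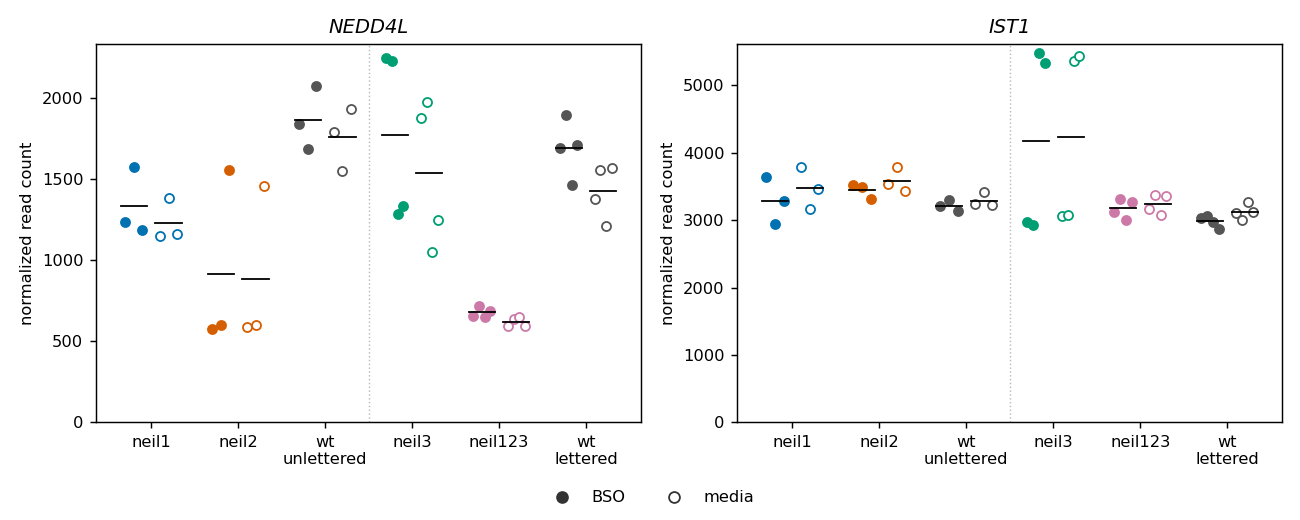
Normalized read counts (vertical axis, from 0) of NEDD4L, left, and IST1, right, in each of 42 libraries; filled points are BSO, open points media, lines group means, and the dotted line separates the label sets. NEDD4L is low in all neil123 libraries and in neil2 line 11, and IST1 is at 5330 to 5485 in neil3 line 2 only.

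Of the genes next to CHMP4C, 2 passed in neil2 and none in neil123. Of 35 annotated genes that reach within 1 Mb of it (RefSeq GRCh38.p14), 7 were in the table and tested: ZNF704, PAG1, FABP5, IMPA1, SLC10A5, ZFAND1 and SNX16. The 2 of 7 in neil2 stand beside 11.0% of all genes in media and 15.8% with BSO, and the 0 of 7 in neil123 beside 5.34% in media and 8.09% with BSO. None passed in neil1 or neil3 either. In neil2 the zinc finger gene ZNF704 fell by 1.84 with BSO (adjusted p = 0.00767) and fell by 2.03 in media (adjusted p = 0.00550), and ZFAND1 rose by 0.49 with BSO (adjusted p = 0.000730) and by 0.30 in media (adjusted p = 0.0316). ZNF704 was at 19.1, 28.6 and 56.5 with BSO and 21.3, 25.4 and 41.6 in media in neil2, and at 99.3, 118 and 132 with BSO and 121, 118 and 118 in media in unlettered wt. ZFAND1, a zinc finger protein of stress granule clearance, overlaps CHMP4C on the opposite strand in GENCODE v29. The strand setting of the counting is not given in the sources used here, so reads of the shared stretch cannot be told apart. In RefSeq ZFAND1 and CHMP4C do not overlap (ZFAND1 ends at 81721304 and CHMP4C starts at 81732448). ZFAND1 had 691 or more in every library, also where CHMP4C was at 0.

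The 6 genes whose levels followed CHMP4C most closely over the 42 libraries, by Pearson's r on log2(value + 1), were PCDHB3 (0.85), APOBEC3C (0.84), DYNC2H1 (0.83), DNAJC6 (0.82), RPS6KC1 (0.82) and PAQR7 (0.82). These correlations are over libraries that share their lines and are a description only. PCDHB3, a protocadherin, had 113 and 66.8 with BSO and 114 and 75.0 in media in neil1 line 13, but 9.23 with BSO and 12.2 in media in neil1 line 12. It had 65.8 to 115 in neil123 and 33.2 to 61.4 in neil2, against 18.2 to 31.7 in wt. APOBEC3C, a cytidine deaminase, was at 1784 and 1967 with BSO in neil2 line 11 but at 553 in line 12, so it did not follow CHMP4C in that line.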

How the data were processed

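RNA levels came from 1 deposited table of 42 libraries. The authors deposited a normalized signal per gene and library. The submitters' processing notes name Trim Galore, HISAT2 (GRCh38, hg38), SAMtools, featureCounts and DESeq2; their versions and the strand setting were not stated there. Dividing each column by its step gave whole reads for 100.0% of values (relative tolerance 1e-06), hence library sizes of 26.8 M to 30.7 M reads; 1 read was worth 0.941 to 1.04. Of 30182 entries, 9667 without a symbol (0.868% to 1.25% of reads) were left out.

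The main test was limma 3.58.1 with an intensity trend (R 4.3.3) on log2(value + 1), which understates changes of low genes, over 14331 genes with a mean of 10 or more, with a term for each of 12 groups (wt split by label set, all groups sharing 1 estimate of the spread); the threshold was a Benjamini-Hochberg adjusted p of 0.05 within a comparison. The fit was tested on simulated data. edgeR 4.0.16 on recovered reads was an alternative and called 1552 genes in neil2 against wt in media, where limma called 1571. Deviations from group means of the BSO and media libraries with the same replicate name correlated over genes with r = 0.193 to 0.849 in 21 pairs, and in 21 of 21 the best match of the BSO library was its namesake, so the names were taken to pair them and blocked values are given where they change a call.

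The 9 genes, the lists and the tests were chosen with earlier results of these data known. Other genes are named where they are called in a knockout (at most 4 of a list, by size of change), among the 6 most like CHMP4C, or near it; the comparison over all 21 pairs, the sign-flip test with either set of pairs, the pooled ratios with 1 library left out, the genes of the BSO result in wt and IST1 were chosen after their values were seen. Gene positions and exon lengths are from GENCODE v29 (GRCh38) and promoters and neighbours from RefSeq GRCh38.p14. Each gene's values depend on overlapping genes where strand was not used. CHMP3 shares its exons with the readthrough RNF103-CHMP3 (0.941 to 17.5), and CHMP1A lies opposite SPATA33. CHMP4A overlaps AL136295.1 and AL096870.2 on the same strand, where strand cannot separate the reads.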

Additional observations from a re-analysis of the deposited data

Results flagged for a closer look

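Of 54 groups of 4 libraries examined (9 genes in 6 groups), 4 held a library that stood apart from the others by Dixon's ratio of gap to range; chance flags about 1 in 20 groups. CHMP4C in neil3 with BSO had a ratio of 0.836, from library 1A at 6.05 against 0.981, 0 and 0.992 in the others, and in neil3 media a ratio of 1, from library 1A at 1.01 against 0 in the others. Both rest on 1 to 6 reads. CHMP1B in lettered wt media had a ratio of 0.892, from library 1.1B at 714 against 661 to 667 in the others, all below the 4 BSO libraries of that set. CHMP3 in lettered wt media had a ratio of 0.849, from library 1.3B at 1121 against 1242 to 1263. The causes were not tested.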

How the results depend on the processing

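The alternatives were the label set as a term, the replicate block, the line as a random block, 1 mean per line, pseudocounts of 0.5 and 5, no filter, a mean of 50 or more, equal totals, edgeR, and leaving out each library. The count of the other 8 genes called in a knockout against wt was 0 under every one of these in 7 of the 8 comparisons. In neil123 media it was 1 with the label set as a term (CHMP4B) and 0 to 1 without 1 library (CHMP1B without 1B). For BSO it was 3 in wt, 2 in neil1, 1 in neil2, 4 in neil3 and 1 in neil123 with the replicate block, and 1 for the BSO change in neil2 against wt; the line as a random block gave 1 in neil2 and 1 in neil3 (CHMP1B in both). Without 1 library it was 1 to 2 in wt (CHMP1A added without unlettered media p1) and 0 to 1 in neil3 (CHMP4B without BSO 2A). For neil3 and neil123 against wt the block was instead a term for the letter (A or B) of the library. It changed no call of the 8 genes there. The names of the neil1 and neil2 libraries carry no letter, so no such term could be made for them. Over all 21 pairs it was 6 without any 1 pair, 6 with 1 mean per line or a pseudocount of 5, 5 with equal totals and 4 with no replicate block. The causes were not tested. CHMP1B with BSO in wt ranged from 0.25 to 0.29 without 1 library and passed each time. The counts of the 4 lists of other pathway genes vary more and are given beside them. CHMP4C depends on the pseudocount: with 5 it was 5.28 in neil2 media against 6.59. No result reversed. With few reads, CHMP4A and CHMP4C near 0 are the least certain values.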
